A study of Solanum lycopersicum with 12 samples.

Results

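The 5 genes described here encode HSP90 and HSP70 chaperones and an activator of HSP90, out of 22827 genes measured in tomato fruit. They were selected on their annotation and on the measured values, as chaperone genes that were either stable or changed across the groups: heat shock protein 81-1 (gene12704), heat shock protein 83-like (gene14852), heat shock protein 83 (gene18063), heat shock protein 70 isoform 3 (gene10098) and a homolog of the activator of 90 kDa heat shock protein ATPase (gene25013, AHA1 homolog). Because the levels in the 4 groups chose the genes, their levels and fold changes are given as a description, with no test.

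RNA was sequenced from whole fruits of *Solanum lycopersicum* cv. Micro-Tom, a dwarf tomato, at 5 days post anthesis (DPA), developing seeds included. The WT was compared with fruits of plants overexpressing 1 of 3 grape (*Vitis vinifera*) sucrose transporters under the constitutive 35S promoter, named *VvSUC11*-OE, *VvSUC12*-OE and *VvSUC27*-OE, with 3 biological replicates (libraries) per group and 12 libraries altogether. Fruits of *VvSUC11*-OE and *VvSUC12*-OE were of the T1 generation and those of *VvSUC27*-OE of the T0 generation, and each transporter was represented by a single hygromycin-selected transgenic line. The line and the transporter cannot be told apart in any comparison, nor can generation and transporter in those of *VvSUC27*-OE. The 3 comparisons with the WT share the same 3 WT libraries.

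HSP90 is a dimeric, ATP-driven chaperone that acts late in folding, on clients such as kinases, receptors and transcription factors. HSP70 binds exposed hydrophobic stretches of young or unfolded proteins, with J-domain proteins delivering clients and BAG and GrpE proteins releasing nucleotide, and HOP passes clients from HSP70 to HSP90. AHA1 binds HSP90 and speeds up its ATP hydrolysis. Plants carry constitutive (cognate) and heat-inducible cytosolic members of both families as well as members of the endoplasmic reticulum (ER), plastids and mitochondria, and heat stress transcription factors control the inducible ones.

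Library totals of the deposited scaled counts, read counts that the authors had brought to a common scale, lay between 20530052 and 21795363, and these totals do not show how deeply each library was sequenced. The fruit markers *TAGL1* (gene18532) and *AGAMOUS* (gene4930) were expressed in every group, at a mean FPKM (fragments per kilobase of transcript, scaled to the mapped fragments of the library) of 108.9 and 45.8 in the WT. The summed FPKM of 37 genes with seed annotations, 13 of which stayed under 10 scaled counts everywhere, was 127 to 133 in the WT, 120 to 183 for *VvSUC11*-OE, 141 to 166 for *VvSUC12*-OE and 47.2 to 50.6 for *VvSUC27*-OE. A late embryogenesis abundant Lea5-like gene (gene14568) made up most of this sum outside *VvSUC11*-OE. Its mean FPKM was 111.1 in the WT, 59.4 for *VvSUC11*-OE, 128.3 for *VvSUC12*-OE and 33.3 for *VvSUC27*-OE. In whole fruits, fewer cells of a type and less RNA per cell cannot be told apart.

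The heat shock protein 83-like gene (gene14852), which KEGG places in orthology group K04079 with the cytosolic HSP90 proteins and RefSeq names *HSP90*, was the lowest of the 5 in the WT, where its FPKM was 10.1, 10.9 and 10.98. In *VvSUC11*-OE it was 65.0, 66.9 and 64.8. In *VvSUC12*-OE it was 86.7, 93.8 and 95.9. The 3 *VvSUC27*-OE libraries had 49.3, 52.6 and 53.3, and no library of one group overlapped with another group. The group means were 10.6 ± 0.511 FPKM in the WT, 65.6 ± 1.14 for *VvSUC11*-OE, 92.1 ± 4.81 for *VvSUC12*-OE and 51.7 ± 2.16 for *VvSUC27*-OE (SD, n = 3). Relative to the WT this was 6.16-fold, 8.65-fold and 4.86-fold. On scaled counts the log2FC was 2.64 (SE 0.0456) for *VvSUC11*-OE, 3.08 (SE 0.0451) for *VvSUC12*-OE and 2.27 (SE 0.0468) for *VvSUC27*-OE.

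Heat shock protein 70 isoform 3 (gene10098, *hsc70.3* in RefSeq, orthology group K03283 of the cytosolic HSP70 proteins) had 14.1, 15.9 and 13.6 FPKM in the WT. It had 79.6, 84.1 and 83.1 in *VvSUC11*-OE and 88.8, 95.4 and 98.0 in *VvSUC12*-OE. In *VvSUC27*-OE it had 47.5, 49.4 and 51.4. The order of the groups was the one seen for gene14852, with *VvSUC12*-OE highest, then *VvSUC11*-OE, *VvSUC27*-OE and the WT, and again no group overlapped with another. The means were 14.5 ± 1.21, 82.3 ± 2.38, 94.1 ± 4.73 and 49.5 ± 1.98 FPKM (SD, n = 3) in the WT, *VvSUC11*-OE, *VvSUC12*-OE and *VvSUC27*-OE, which put the lines at 5.66, 6.47 and 3.40 times the WT. The log2FC was 2.52 (SE 0.0556), 2.67 (SE 0.0530) and 1.76 (SE 0.0554).

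The AHA1 homolog (gene25013) moved much less. Its FPKM was 80.9, 88.2 and 82.1 in the WT, 103.1, 99.9 and 102.9 for *VvSUC11*-OE, 118, 117 and 115 for *VvSUC12*-OE and 113, 115 and 110.4 for *VvSUC27*-OE. All 9 libraries of the lines lay above the WT libraries. The means were 83.7 ± 3.95 FPKM in the WT, 101.9 ± 1.81 for *VvSUC11*-OE, 117 ± 1.24 for *VvSUC12*-OE and 113 ± 2.10 for *VvSUC27*-OE (SD, n = 3), or 1.22, 1.40 and 1.34 times the WT. The *VvSUC12*-OE and *VvSUC27*-OE libraries overlapped in scaled counts but not in FPKM, with the mean of *VvSUC12*-OE the higher on both scales.

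**Figure D1:**
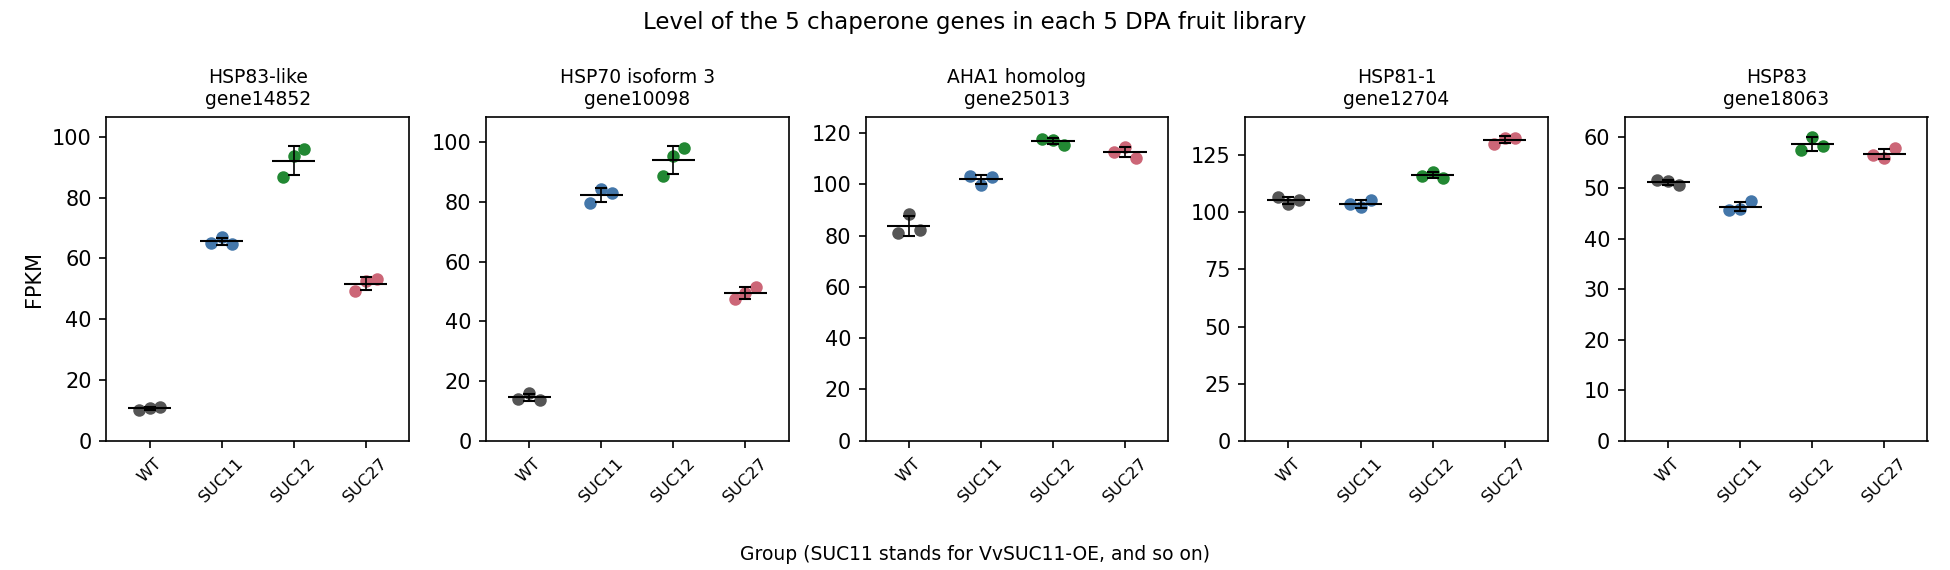
FPKM (vertical axes, each from 0) of the 5 genes in every library, by group (horizontal axes), where each point is a library, the long line the mean and the error bar the SD of 3 libraries. Heat shock protein 83-like and HSP70 isoform 3 sit at 10.1 to 15.9 FPKM in the WT and at 47.5 or more in every library of the lines, while the other 3 genes vary by at most 1.40 times between group means.

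The remaining HSP90 genes of the set were nearly level. Heat shock protein 81-1 (gene12704, orthology group K09487, which holds the ER-type HSP90 proteins) had 107, 104 and 105 FPKM in the WT and 104, 102 and 105 for *VvSUC11*-OE, and these groups overlapped. It had 116, 118 and 115 for *VvSUC12*-OE and 129.9, 133 and 133 for *VvSUC27*-OE, both above all WT libraries. The means were 105 ± 1.60, 104 ± 1.67, 116 ± 1.25 and 132 ± 1.53 FPKM (SD, n = 3) in the WT, *VvSUC11*-OE, *VvSUC12*-OE and *VvSUC27*-OE. The log2FC against the WT was -0.02 (SE 0.0275), 0.12 (SE 0.0247) and 0.32 (SE 0.0264), and the small difference of *VvSUC11*-OE turned to 0.02 when library totals were made equal.

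Heat shock protein 83 (gene18063), also in group K09487, had 51.5, 51.3 and 50.6 FPKM in the WT. It was lower in *VvSUC11*-OE, with 45.7, 45.9 and 47.4, and higher in *VvSUC12*-OE, with 57.4, 60.2 and 58.3, as it was in *VvSUC27*-OE, with 56.5, 55.9 and 57.9. No library of a line overlapped with the WT, whereas *VvSUC12*-OE and *VvSUC27*-OE overlapped with each other. The means were 51.1 ± 0.476, 46.3 ± 0.925, 58.6 ± 1.40 and 56.8 ± 1.02 FPKM (SD, n = 3) for the WT, *VvSUC11*-OE, *VvSUC12*-OE and *VvSUC27*-OE, and the log2FC was -0.14 (SE 0.0322), 0.18 (SE 0.0303) and 0.15 (SE 0.0307). Every other group difference among the 5 genes that is described here as higher or lower kept its sign under the 14 alternative settings of each comparison.

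All 5 genes passed the filter on low values in each comparison, and a log2FC above 1 against the WT was reached by 2 of the 5, gene14852 and gene10098, in each line. Among all genes tested, 7.76% exceeded this fold upwards in the comparison for *VvSUC11*-OE, 3.66% for *VvSUC12*-OE and 4.11% for *VvSUC27*-OE, and since the same contrast chose the genes nothing is read from the counts. The smallest of these values was 1.76, for gene10098 in *VvSUC27*-OE, and the largest below the limit was 0.47, for gene25013 in *VvSUC12*-OE. Between lines gene14852 and gene10098 differed by less than from the WT: gene14852 by 0.44 (*VvSUC12*-OE over *VvSUC11*-OE), -0.37 (*VvSUC27*-OE over *VvSUC11*-OE) and -0.81 (*VvSUC27*-OE over *VvSUC12*-OE) on the log2 scale, and gene10098 by 0.15, -0.75 and -0.90. For gene25013 the largest difference between lines was 0.15, also less than from the WT. For gene12704 and gene18063 it was 0.34 and 0.32, more than their largest from the WT, 0.32 and 0.18.

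The order of the levels, which can be compared between genes because FPKM is given per length, differed between groups. In the WT it ran from gene12704 (105 FPKM) over gene25013 (83.7), gene18063 (51.1) and gene10098 (14.5) to gene14852 (10.6), and all neighbours were apart. In *VvSUC12*-OE the AHA1 homolog (117) and gene12704 (116) overlapped at the top, gene10098 (94.1) and gene14852 (92.1) overlapped in the middle, and gene18063 (58.6) was last. In *VvSUC11*-OE gene12704 and gene25013 overlapped, followed by gene10098, gene14852 and gene18063, all apart. In *VvSUC27*-OE gene12704, gene25013 and gene18063 were apart, and gene14852 (51.7) and gene10098 (49.5) overlapped below them. Within groups the libraries of a gene varied by a coefficient of variation of at most 8.29%, that of gene10098 in the WT.

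Over the 12 libraries, which fall into 4 groups and share the authors' scaling, log2 scaled counts of gene14852 and gene10098 had a Pearson correlation of 0.988. The AHA1 homolog had 0.927 with gene14852 and 0.877 with gene10098. Both level HSP90 genes had 0.758 with each other, and the other pairs lay between 0.111 and 0.588. Group differences make up most of these values, and they are descriptions only.

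By the same measure, the genes most like gene14852 among 12416 annotated genes averaging 50 or more scaled counts were a newly assembled gene annotated as a probable glycerol-3-phosphate dehydrogenase (r = 0.9922), heat stress transcription factor A-7a (gene22594, r = 0.9918), a mitochondrial-like BAG family molecular chaperone regulator 5 (gene25417, r = 0.9909), the mitochondrial small heat shock protein (gene20842, r = 0.9901) and a probable 2-oxoglutarate-dependent dioxygenase AOP1 (gene4252, r = 0.9887). Those most like gene10098 were gene22594 (r = 0.9932), gene4252 (r = 0.9897), HSP70-HSP90 organizing protein 2 (gene20887, HOP2, r = 0.9897), gene14852 (r = 0.9883) and MADS-box transcription factor MADS-rin (gene12740, r = 0.9870). The mitochondrial small heat shock protein, an ATP-independent holdase, had a mean of 6.87 ± 1.13 FPKM in the WT, 78.6 ± 9.05 for *VvSUC11*-OE, 102.4 ± 7.05 for *VvSUC12*-OE and 63.9 ± 2.02 for *VvSUC27*-OE (SD, n = 3). HOP2 followed the same order over a far smaller range, with 111 ± 1.18, 144 ± 0.788, 152 ± 2.62 and 131 ± 2.53 FPKM in the WT, *VvSUC11*-OE, *VvSUC12*-OE and *VvSUC27*-OE.

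The rest of the families were then tested. By annotation there were 8 HSP90 genes, 23 HSP70 genes and 25 co-chaperone genes, and 51 of these 56 were not among the 5. A gene was called when limma, fitted across all genes on log2(scaled count + 1), gave an FDR (Benjamini-Hochberg) below 0.01 together with a log2FC beyond 1 in either direction. In *VvSUC11*-OE 8 of the 49 tested genes were upregulated, where 7.39% of all genes tested were, and 1 was downregulated, where 7.33% of all genes were. The 8 include gene16932, which was at 0 in all WT libraries and passed the filter only through *VvSUC11*-OE, so it could only be called higher. A newly assembled gene, newGene_1347, is counted as upregulated in all 3 lines. In the WT it held only 0.00564% to 0.00887% of the summed HSP70 FPKM, so it could hardly be called lower. Counts without newly assembled genes are given further below. On log2(FPKM + 1) the upregulated count in *VvSUC11*-OE was 5 in place of 8. In *VvSUC12*-OE 9 of 48 were upregulated against 3.31% of all genes, and 1 was downregulated against 5.3%. In *VvSUC27*-OE 8 of 48 were upregulated against 3.8% of all genes, and 1 was downregulated against 7.21%. The median log2FC of the lists was 0.20, 0.23 and 0.20 in the 3 lines, beside -0.03, -0.01 and 0.00 over all genes. The upregulated genes were spread over the HSP90 list (1 gene in each line), the HSP70 list (5, 6 and 6 genes) and the co-chaperone list (2, 2 and 1 genes).

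**Figure D2:**
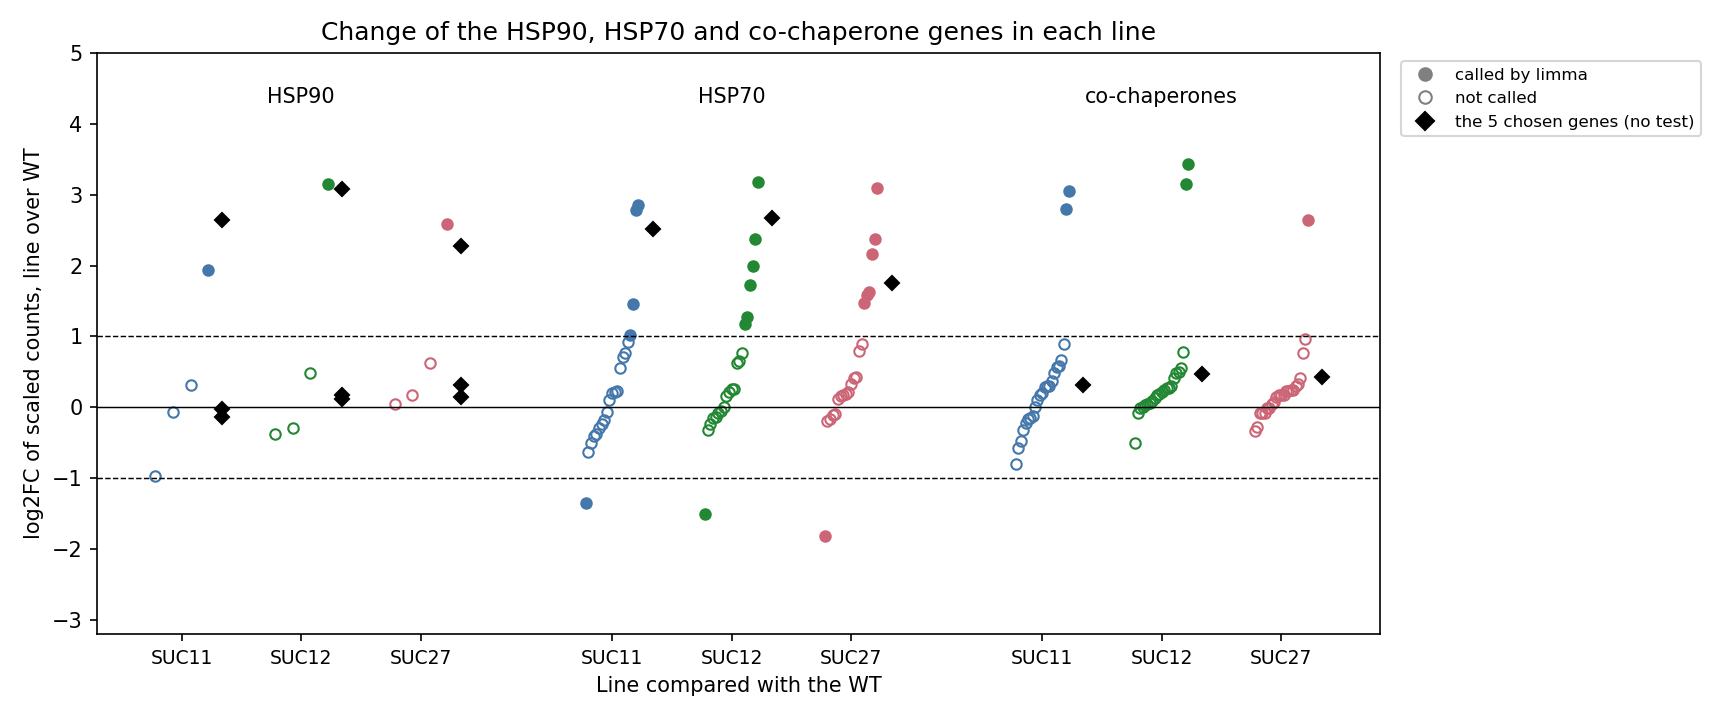
The log2FC of scaled counts against the WT (vertical axis) for the HSP90, HSP70 and co-chaperone genes in each line (horizontal axis), where filled circles are genes called by limma, open circles genes not called, diamonds the 5 chosen genes without a test, and dashed lines a log2FC of -1 and 1. An HSP70 gene listed at 0 in the WT (gene16932) is left out, and most genes of all 3 lists lie between the dashed lines, with the highest values near 3.

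Of the other HSP90 genes, only the second gene annotated as heat shock protein 83 (gene6983) was called in a comparison with the WT. It has the same name as gene18063 but belongs to the cytosolic group K04079. Its FPKM was 4.05, 4.29 and 4.385 in the WT, 15.3, 16.0 and 16.6 for *VvSUC11*-OE, 36.5, 37.5 and 39.3 for *VvSUC12*-OE and 24.2, 24.8 and 26.4 for *VvSUC27*-OE, with no overlap between any groups. The log2FC was 1.94 (SE 0.0696, limma FDR = 4.51e-12), 3.15 (SE 0.0560, FDR = 6.56e-18) and 2.58 (SE 0.0622, FDR = 4.04e-16). The *VvSUC12*-OE fruits exceeded the *VvSUC11*-OE fruits by 1.21 (SE 0.0461, limma FDR = 8.33e-14).

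The most abundant HSP90 genes were not called. Heat shock cognate protein 80 (*HSC80*, gene19010) had the highest FPKM of the family, with 1052 ± 6.77 in the WT, 965 ± 6.79 for *VvSUC11*-OE, 817 ± 4.8 for *VvSUC12*-OE and 1082 ± 10.5 for *VvSUC27*-OE (SD, n = 3). In *VvSUC12*-OE its log2FC was -0.37 (SE 0.0205, limma FDR = 4.59e-11), under the fold limit. *Hsp90-1* (gene28350) had 286 ± 2.96, 349 ± 6.18, 401 ± 2.59 and 436 ± 5.98 FPKM in the WT, *VvSUC11*-OE, *VvSUC12*-OE and *VvSUC27*-OE, with log2FC of 0.32, 0.48 and 0.62 and a limma FDR of at most 7.79e-08. Thus K04079 held both genes with large fold changes and genes with small ones, and the 3 K09487 genes with more than 10 scaled counts had an absolute log2FC under 1 against the WT in every line.

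The third of these, endoplasmin (gene12028), the HSP90 of the ER, had 251 ± 2.68 FPKM in the WT, 129.5 ± 3.56 for *VvSUC11*-OE, 208 ± 3.57 for *VvSUC12*-OE and 286 ± 3.41 for *VvSUC27*-OE (SD, n = 3). Its log2FC in *VvSUC11*-OE was -0.97 (SE 0.0284, limma FDR = 4.98e-13), just short of the fold limit, and *VvSUC27*-OE exceeded *VvSUC11*-OE by 1.15 (SE 0.0281, limma FDR = 1.32e-15). It was not among the genes named by rule and was singled out after its values were seen. The eighth gene, a further endoplasmin homolog (gene12032), had at most 3 scaled counts in any library and was not tested.

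Summed over the 8 genes, HSP90 FPKM was 1761 ± 1.30 in the WT, 1675 ± 12.4 for *VvSUC11*-OE, 1731 ± 9.96 for *VvSUC12*-OE and 2069 ± 16.8 for *VvSUC27*-OE (SD, n = 3). The share of gene14852 in this sum was 0.605% in the WT, 3.92% for *VvSUC11*-OE, 5.32% for *VvSUC12*-OE and 2.50% for *VvSUC27*-OE. Gene6983 took 0.241%, 0.953%, 2.18% and 1.21% in the same order, and *HSC80* took 59.8%, 57.6%, 47.2% and 52.3%. The large fold changes of gene14852 and gene6983 were therefore small parts of the HSP90 transcript sum, which was lower than the WT in *VvSUC11*-OE and *VvSUC12*-OE.

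**Figure D3:**
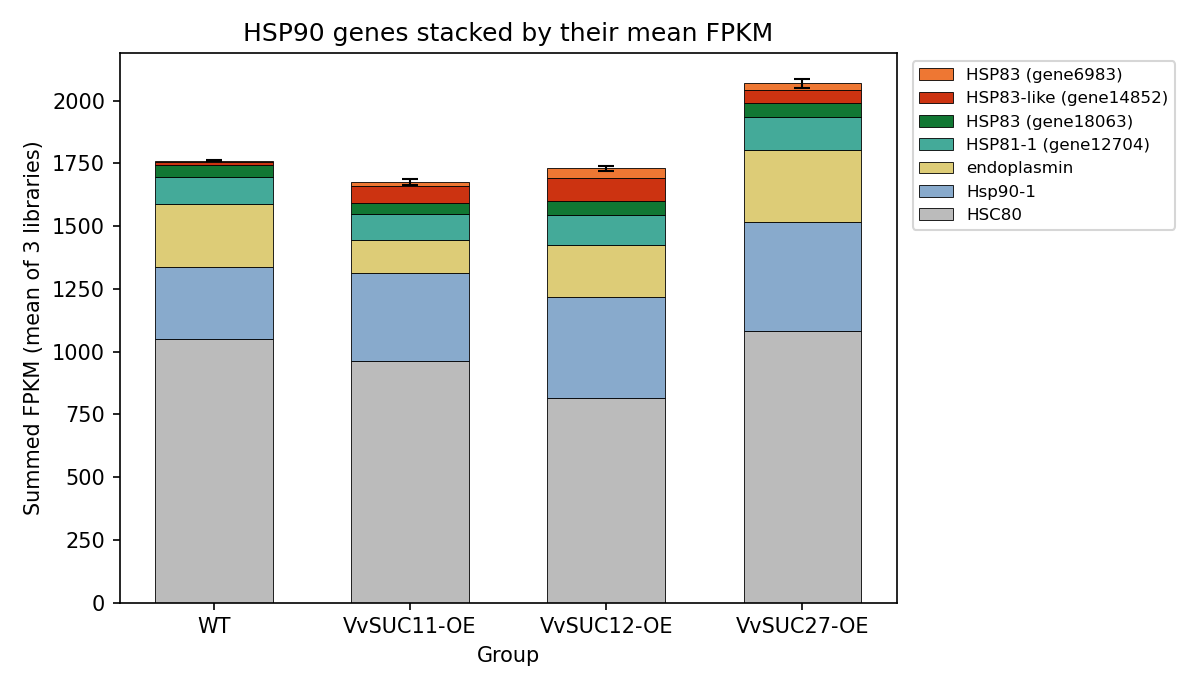
Mean FPKM of 7 HSP90 genes (stacked, vertical axis from 0) in each group (horizontal axis), with the SD of the summed FPKM over 3 libraries as error bars. *HSC80* is the largest block in every group, and the sum is 1761 in the WT and 2069 in *VvSUC27*-OE.

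In the HSP70 family, the cytosolic heat shock cognate gene27182 was also low in the WT and called higher in all lines, but unlike gene10098 it had a lower mean in *VvSUC11*-OE than in *VvSUC27*-OE. Its FPKM was 6.36, 7.255 and 7.69 in the WT, 47.9, 47.3 and 48.4 for *VvSUC11*-OE, 59.4, 66.1 and 70.4 for *VvSUC12*-OE and 58.5, 58.5 and 65.7 for *VvSUC27*-OE. All lines were apart from the WT, and *VvSUC12*-OE overlapped with *VvSUC27*-OE. The log2FC was 2.79 (SE 0.0646, limma FDR = 4.34e-14), 3.18 (SE 0.0675, FDR = 7.00e-17) and 3.10 (SE 0.0653, FDR = 6.35e-17).

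A cognate 70 kDa protein 2-like gene (gene27178), which in RefSeq assembly SLM_r2.1 lies near gene27182 with 2 coding genes between them, started from a much higher level. It had 232 ± 2.38 FPKM in the WT, 461 ± 7.36 for *VvSUC11*-OE, 398 ± 11.9 for *VvSUC12*-OE and 642 ± 5.14 for *VvSUC27*-OE (SD, n = 3). It was called in *VvSUC11*-OE (log2FC 1.02, SE 0.0264, limma FDR = 1.40e-13) and in *VvSUC27*-OE (1.47, SE 0.0252, FDR = 6.02e-18) but not in *VvSUC12*-OE (0.77, SE 0.0252, FDR = 2.67e-14), where the difference stayed under the fold limit. On log2(FPKM + 1) the *VvSUC11*-OE value was 0.99 and the call was lost.

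Heat shock 70 kDa protein 5 (gene9116) and protein 8 (gene22900) were called in *VvSUC12*-OE and *VvSUC27*-OE. Gene9116 had 2.44 ± 0.203 FPKM in the WT, 2.80 ± 0.249 for *VvSUC11*-OE, 12.9 ± 0.0946 for *VvSUC12*-OE and 12.7 ± 0.239 for *VvSUC27*-OE (SD, n = 3). The log2FC was 2.38 in both *VvSUC12*-OE (SE 0.0884, limma FDR = 1.49e-13) and *VvSUC27*-OE (SE 0.0907, FDR = 2.39e-13), and 0.23 in *VvSUC11*-OE (SE 0.132, FDR = 0.145). Both lines exceeded *VvSUC11*-OE by 2.15 (limma FDR = 1.49e-13 for *VvSUC12*-OE and 1.25e-12 for *VvSUC27*-OE). Gene22900 had 5.98 ± 0.271, 10.1 ± 1.09, 24.2 ± 0.483 and 17.8 ± 0.547 FPKM in the WT, *VvSUC11*-OE, *VvSUC12*-OE and *VvSUC27*-OE, and *VvSUC12*-OE exceeded *VvSUC11*-OE by 1.23 (SE 0.0673, limma FDR = 1.49e-11). Gene10098 did not share this pattern, as its FPKM was higher in *VvSUC11*-OE than in *VvSUC27*-OE.

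Newly assembled HSP70 genes, gene16932 and gene26513 made up the remaining HSP70 calls against the WT. A heat shock cognate 70 kDa protein-like gene assembled by the authors (newGene_1462) was called higher in all lines, with log2FC of 1.46, 1.17 and 1.63. On log2(FPKM + 1) the values were 1.00, 0.72 and 1.09 and the calls in *VvSUC11*-OE and *VvSUC12*-OE were lost. A newly assembled gene with the annotation of an ER chaperone binding protein (newGene_1392, the BiP type) was the single downregulated gene in each line, with log2FC of -1.35, -1.51 and -1.81 at 27 to 115 scaled counts per library, and on log2(FPKM + 1) the values were -0.76, -0.81 and -0.94 and all these calls were lost. The gene newGene_1347 was called higher in all lines at 4 to 60 scaled counts, and its KEGG identifier is that of gene27178. Near-identical HSP70 copies can divide or share reads, and how the authors assigned such reads is not given in the sources used here. Gene16932, an HSP70-like gene, was at 0 in all WT libraries and had 35, 47 and 103 scaled counts in *VvSUC11*-OE, at least 20.6-fold higher than a floor of 3 scaled counts per library. The last called gene, gene26513, was higher in *VvSUC12*-OE, with a log2FC of 1.28 (SE 0.0398, limma FDR = 1.33e-14). The last 3 named here fell outside the naming rule and were chosen after their values were seen.

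The HSP70 gene of highest level, a cognate 70 kDa protein 2-like gene (gene21737), had 1172 ± 6.0 FPKM in the WT, 1322 ± 13.5 for *VvSUC11*-OE, 1068 ± 4.56 for *VvSUC12*-OE and 1272 ± 25.6 for *VvSUC27*-OE (SD, n = 3), and was not called. The chloroplast stromal HSP70 (gene2902) had 233 ± 2.87, 197 ± 1.96, 201 ± 3.74 and 219 ± 3.61 FPKM and was not called either. The summed HSP70 FPKM ranged from 2287 to 2299 in the WT, 2698 to 2745 for *VvSUC11*-OE, 2567 to 2635 for *VvSUC12*-OE and 3022 to 3106 for *VvSUC27*-OE. Gene10098 took 0.633% of it in the WT, 3.02% for *VvSUC11*-OE, 3.6% for *VvSUC12*-OE and 1.61% for *VvSUC27*-OE. Unlike for HSP90, every line lay above the WT in this sum.

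Among the co-chaperones the calls fell on BAG proteins, the nucleotide exchange factors of HSP70. The mitochondrial-like BAG regulator 5 (gene25417) had 5.92, 5.63 and 6.09 FPKM in the WT, 39.6, 44.01 and 47.8 for *VvSUC11*-OE, 59.2, 67.4 and 54.7 for *VvSUC12*-OE and 32.4, 36.7 and 47.0 for *VvSUC27*-OE. All lines were above the WT, while *VvSUC11*-OE and *VvSUC27*-OE overlapped. The log2FC was 2.80 (SE 0.156, limma FDR = 6.29e-10), 3.15 (SE 0.150, FDR = 5.18e-12) and 2.65 (SE 0.168, FDR = 2.92e-10).

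BAG regulator 6 (gene2230) separated the lines. It had 4.06 ± 0.0162 FPKM in the WT, 33.9 ± 1.06 for *VvSUC11*-OE, 45.3 ± 1.62 for *VvSUC12*-OE and 7.03 ± 0.301 for *VvSUC27*-OE (SD, n = 3). The log2FC was 3.05 (SE 0.0444, limma FDR = 2.34e-16), 3.44 (SE 0.0403, FDR = 2.09e-20) and, without a call, 0.76 (SE 0.0601, FDR = 6.79e-09). *VvSUC27*-OE was lower than *VvSUC11*-OE by a log2FC of -2.29 (SE 0.0469, limma FDR = 1.27e-16) and lower than *VvSUC12*-OE by -2.68 (SE 0.0422, FDR = 2.55e-19). The co-chaperones of highest level, BAG regulator 7 (gene8040, 218 FPKM in the WT) and a BAG regulator 3-like gene (gene14807, 149 FPKM), were not called, with log2FC of -0.80, 0.05 and -0.34 for gene8040 and 0.57, 0.19 and -0.28 for gene14807. HOP2 and the AHA1 homolog, which act on HSP90 directly, both had log2FC under 1 in every line.

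**Figure D4:**
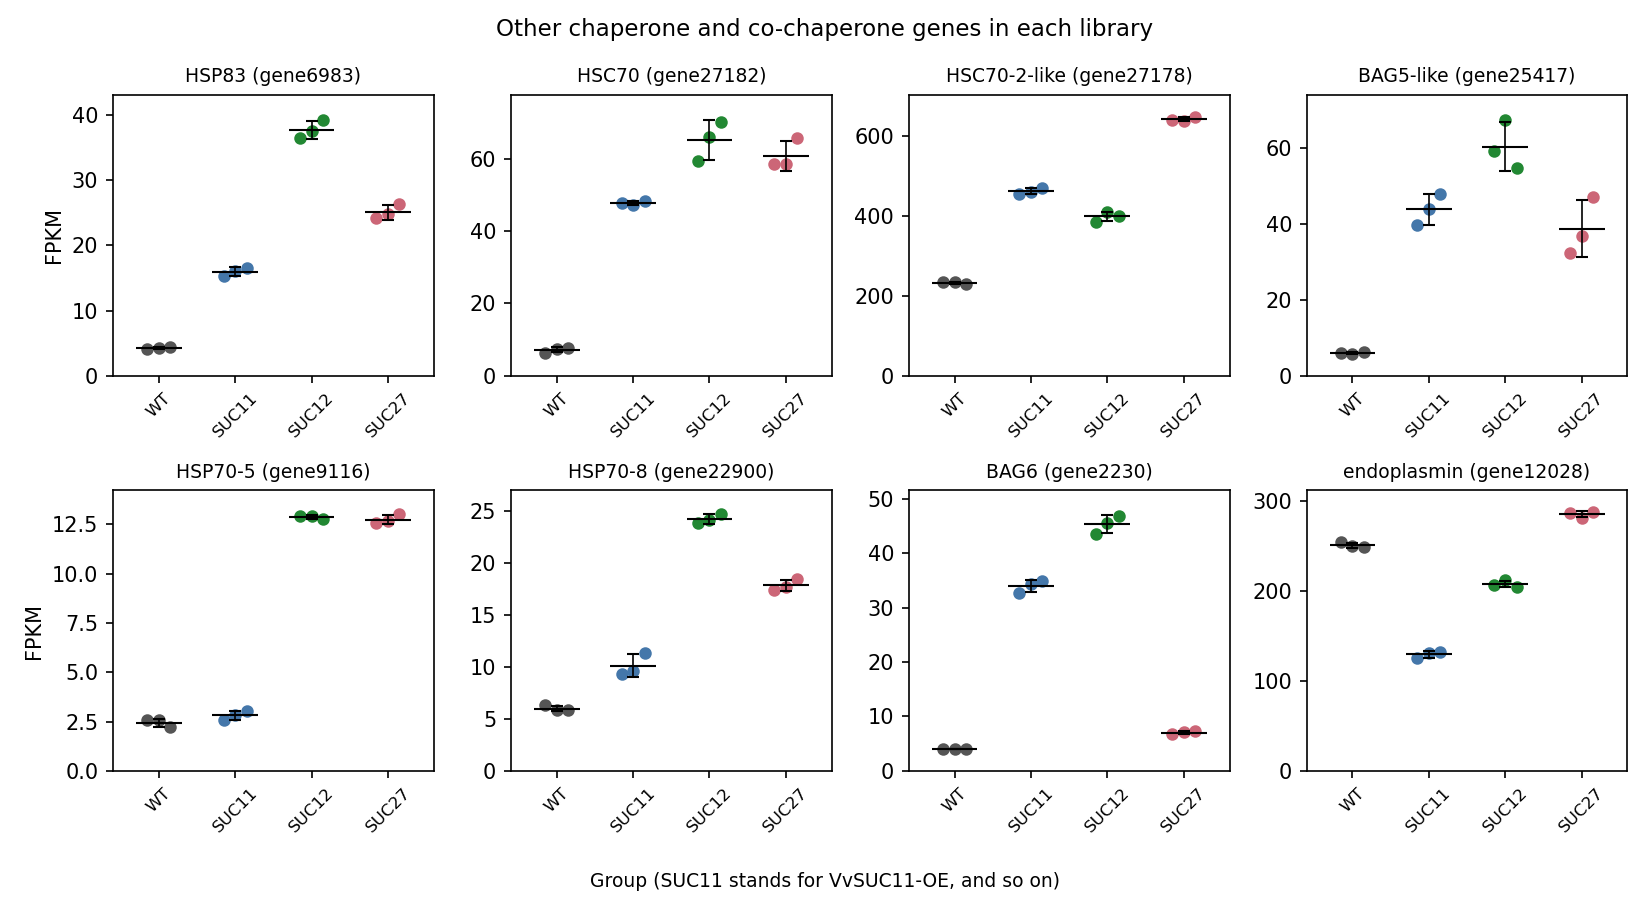
FPKM (vertical axes, each from 0) of 8 further HSP90, HSP70 and BAG genes in every library, by group (horizontal axes), with the mean (long line) and SD (error bar) of 3 libraries. HSP70-5 is at 2.44 FPKM in the WT and 2.80 in *VvSUC11*-OE but 12.9 and 12.7 in the other lines, and BAG6 at 33.9 and 45.3 in *VvSUC11*-OE and *VvSUC12*-OE but 7.03 in *VvSUC27*-OE.

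Compared line with line, the 3 lists without the 5 genes held 3 called higher and 2 lower of 49 in *VvSUC12*-OE against *VvSUC11*-OE, where 4.74% and 5.51% of all genes were called. In *VvSUC27*-OE against *VvSUC11*-OE 3 were higher and 2 lower of 49, beside 3.67% and 6.99% of all genes. In *VvSUC27*-OE against *VvSUC12*-OE limma called 0 of 48 higher and 2 lower, beside 2.64% and 4.16% of all genes. At an unadjusted limma p under 0.05, 19 were higher and 14 lower. The share of all genes at that limit is not given here, so nothing is read from these 2 counts. The genes called higher over *VvSUC11*-OE were gene6983, gene9116 and gene22900 in *VvSUC12*-OE, and gene9116, endoplasmin and its HSP70 counterpart of the ER, BiP (gene21243), in *VvSUC27*-OE. The genes called lower in *VvSUC27*-OE than in *VvSUC12*-OE were gene2230 and gene26513, the latter by a log2FC of -1.47 (SE 0.0452, limma FDR = 3.35e-15). The counts of genes lower than in *VvSUC11*-OE rest in part on gene16932, and without *VvSUC11*-OE replicate 1 no gene was called lower in *VvSUC12*-OE than in *VvSUC11*-OE, without replicate 2 or replicate 3 there was 1, and without any one of the 3 there was 1 in *VvSUC27*-OE against *VvSUC11*-OE.

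Small heat shock protein genes were upregulated in large part in each line. Of the small heat shock protein genes tested, 14 of 23 were upregulated in *VvSUC11*-OE, 17 of 23 in *VvSUC12*-OE fruits and 14 of 21 in *VvSUC27*-OE, and 1 was downregulated in *VvSUC27*-OE, beside 7.39%, 3.31% and 3.8% of all genes upregulated and 7.21% downregulated in *VvSUC27*-OE. Some upregulated genes had under 10 scaled counts in every WT library and passed the filter only through the lines. Examples are gene16550 in each line and gene11345 in *VvSUC11*-OE. The summed FPKM of the small heat shock protein genes was 425 ± 12.7 in the WT, 980 ± 46.6 for *VvSUC11*-OE, 1278 ± 67.8 for *VvSUC12*-OE and 836 ± 42.3 for *VvSUC27*-OE (SD, n = 3), the group order of gene14852. Of 11 tested HSP100 and HSP60 genes 1 was called in each line, and the median log2FC of that list was -0.22, -0.01 and 0.06. The called gene, the disaggregase ClpB1 (gene8899, HSP101 type), which works with HSP70 on aggregated proteins, had 14.9 ± 0.330, 47.5 ± 2.77, 86.1 ± 4.28 and 55.9 ± 1.10 FPKM, with log2FC of 1.71 (limma FDR = 1.55e-13), 2.52 (FDR = 7.87e-19) and 1.91 (FDR = 1.68e-17). It was chosen after its values were seen.

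Marker lists of other tissues also differed between groups. Of the seed-annotated genes 12 of 17 tested were upregulated in *VvSUC11*-OE, 1 of 6 was upregulated and 1 downregulated in *VvSUC12*-OE, and 3 of 6 were downregulated in *VvSUC27*-OE. Many of the 17, such as gene14750 and gene21941 with at most 1 scaled count per WT library, passed the filter only through the *VvSUC11*-OE libraries. Such genes could only be called higher, so nothing is read from the 12 of 17. The shares over all genes were 7.39% upregulated in *VvSUC11*-OE, 3.31% upregulated and 5.3% downregulated in *VvSUC12*-OE and 7.21% downregulated in *VvSUC27*-OE. The summed FPKM of 30 photosynthesis genes was 12638 to 13732 in the WT, 10683 to 11280 for *VvSUC11*-OE, 8975 to 9466 for *VvSUC12*-OE and 12235 to 12709 for *VvSUC27*-OE, and that of 27 genes in a carpel and fruit list was 847 to 872, 952 to 979, 913 to 939 and 770 to 792. That list took in all genes annotated agamous-like, not only carpel and fruit genes, and 13 of the 27 stayed under 10 scaled counts everywhere. Homologs of AGL9 (gene13063) and AGL8 (gene8858) were its highest in the WT, with mean FPKM of 337 and 211. Of 13 tested genes of the carpel and fruit list, 1 was called higher and 2 lower in each line. Over all genes, 7.39%, 3.31% and 3.8% were upregulated and 7.33%, 5.3% and 7.21% downregulated in the 3 lines. The gene called higher was AGL12-like (gene26722), with log2FC of 2.2, 1.81 and 1.66 (limma FDR at most 2.25e-06). The 2 called lower were of the ovule-associated AGL11 type. An AGL11 gene (gene15601) had log2FC of -2.75, -1.47 and -2.39 (limma FDR at most 2.84e-13). For *TAGL11* (gene26656) it was -1.55, -1.38 and -1.40 (limma FDR at most 1.70e-09). These genes were chosen after their values were seen. A list of 26 anther and pollen genes summed to 2234 to 2301, 2509 to 2534, 2476 to 2549 and 2282 to 2307. The part of tissue composition in the chaperone levels was not tested.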

How the data were processed

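RNA-seq of 12 libraries, 3 per group, was analysed from 1 table of 22827 genes. Per the paper and the submitters' processing notes, the authors mapped clean reads with TopHat2 to an NCBI tomato assembly named in the study. The deposited FPKM were made by the authors with cuffnorm. The deposited counts are whole numbers that the authors had scaled to a common size, so they were treated as a score (scaled counts) and not as reads, and the planned count model was replaced by limma. Columns with the authors' EBSeq fold changes and FDR were not used, nor were 6 tables of genes called by the authors.

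All 6 pairs of groups were compared using limma 3.58.1 (R 4.3.3) with a trended prior variance, fitted to log2(scaled count + 1) in the 6 libraries of a pair. Genes needed 10 scaled counts in 3 or more libraries, which left 18604 to 19128 genes. Calls needed an FDR (Benjamini-Hochberg) below 0.01 together with a log2FC beyond 1 in either direction. Fold changes are on the log2(scaled count + 1) scale, which understates changes of low genes. The script was tested on simulated data.

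The 5 genes and all lists, built from the deposited annotation, were chosen with earlier results of these data known. Named genes were the 5, every other HSP90, HSP70 or co-chaperone gene called against the WT that averaged 50 or more scaled counts and had no overlap with the WT (at most 3 per list, direction and line), the 2 of highest WT FPKM per list, and the 5 most like each changed gene. Of the 5 genes, 4 matched RefSeq (SLM_r2.1) by KEGG identifier, and 37 of 37 such identifiers in the lists matched. The assembly of that table is another one, so no coordinates are given. Sequences were not used here, nor were the numbers of sequenced and mapped reads that the study gives for each library. The replicates are independent biological replicates per the paper, and squared differences between libraries of a group were 1.62 to 2.68 times those of counting error, so none was counted as a duplicate. Alternatives were log2(FPKM + 1), equal library totals, pseudocounts of 0.5 and 5, no filter, a mean of at least 50, a fit of all 12 libraries, a replicate block, leaving out each library and, chosen after seeing the data, leaving out newly assembled genes.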

Additional observations from a re-analysis of the deposited data

Results flagged for a closer look

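Of 15 HSP90, HSP70 and co-chaperone genes named for their calls against the WT or their level, limma called 4 between lines. Because calls against the WT chose most of them, nothing is read from this count. Counts over the whole lists are given above beside the shares of all genes. HSP83 (gene6983) was higher in *VvSUC12*-OE than in *VvSUC11*-OE by a log2FC of 1.21, and heat shock 70 kDa protein 8 (gene22900) by 1.23. Heat shock 70 kDa protein 5 (gene9116) was higher than in *VvSUC11*-OE by 2.15 in *VvSUC12*-OE and by 2.15 in *VvSUC27*-OE. BAG regulator 6 (gene2230) was lower in *VvSUC27*-OE, by a log2FC of -2.29 against *VvSUC11*-OE and of -2.68 against *VvSUC12*-OE.

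Heat shock protein 83 (gene18063) was below the WT in all *VvSUC11*-OE libraries and above it in all libraries of the other lines. The log2FC over *VvSUC11*-OE was 0.32 in *VvSUC12*-OE and 0.29 in *VvSUC27*-OE, a difference that was not tested because the gene was chosen by its values.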

How the results depend on the processing

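The count of 2 of the 5 genes above a log2FC of 1 was the same in all 14 alternatives of each comparison with the WT. Of 1257 refits of 15 named genes, 1251 kept direction and call, and 6 calls were lost, all on log2(FPKM + 1). On that scale 5 genes of the lists, in place of 8, were called higher in *VvSUC11*-OE against the WT, 0 in place of 1 were called lower in each line, and 1 in place of 2 was called lower in *VvSUC12*-OE against *VvSUC11*-OE. An added pseudocount of 1 weighs more on FPKM than on scaled counts. With a mean of at least 50, 0 were called lower in *VvSUC12*-OE and 1 in *VvSUC27*-OE against *VvSUC11*-OE, in place of 2, since gene16932 and other low genes were no longer tested. Leaving out 1 library gave 0 to 2 and 1 to 2 in these comparisons. Without newly assembled genes 6, 7 and 6 were called higher and 0 lower against the WT, and 1 lower in *VvSUC12*-OE against *VvSUC11*-OE. Same-numbered replicates did not deviate together (r = -0.0789 to 0.0823 over 16501 genes), and with the replicate block the counts called higher stayed at 8, 9 and 8 against the WT and at 3, 3 and 0 between lines, and those called lower at 1 and 2. Single lines, 3 libraries per group and values scaled before deposit limit all results.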

Other observations

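Heat stress transcription factors control inducible chaperone genes. Of 22 tested genes of a list that holds these factors and 2 heat shock factor-binding proteins, 3 were upregulated in each line and 1 was downregulated in *VvSUC27*-OE, beside 7.39%, 3.31% and 3.8% of all genes upregulated and 7.21% downregulated in *VvSUC27*-OE. All those called were transcription factors. The median log2FC of the list was 0.26, 0.21 and -0.21 for the 3 lines, beside -0.03, -0.01 and 0.00 over all genes. By the FDR limit alone, 10, 9 and 4 genes of the list were higher than the WT and 3, 1 and 8 lower. The shares of all genes at the FDR limit alone are not given here, so nothing is read from these counts. The downregulated gene was an A-2-like factor (gene17715), whose log2FC for *VvSUC27*-OE was -1.60 (limma FDR = 9.81e-09). A-7a (gene22594) had 4.82 ± 0.264 FPKM in the WT, 18.7 ± 1.82 for *VvSUC11*-OE, 21.2 ± 1.5 for *VvSUC12*-OE and 14.0 ± 0.286 for *VvSUC27*-OE (SD, n = 3), with log2FC of 1.93 (limma FDR = 1.10e-10), 2.09 (FDR = 1.87e-13) and 1.51 (FDR = 7.82e-11). B-2a (gene7082) was called higher in *VvSUC11*-OE, with a log2FC of 1.54 (limma FDR = 2.29e-11). Against *VvSUC11*-OE its log2FC was -1.26 in *VvSUC12*-OE (FDR = 2.61e-14) and -2.19 in *VvSUC27*-OE (FDR = 1.10e-14).

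J-domain proteins bring clients to HSP70. Of 54 tested, 2 were upregulated and 1 downregulated for *VvSUC11*-OE, 2 upregulated for *VvSUC12*-OE, and 1 upregulated and 3 downregulated for *VvSUC27*-OE. In percent, 3.7, 3.7 and 1.85 of the list were upregulated, beside 7.39, 3.31 and 3.8 of all genes, and 1.85 were downregulated for *VvSUC11*-OE and 5.56 for *VvSUC27*-OE, beside 7.33 and 7.21 of all genes. Of 20 tested ER folding genes, 1 was upregulated in *VvSUC11*-OE and 1 was downregulated in each line, which is 5.0% of the list in each case. Over all genes, 7.39% were upregulated in *VvSUC11*-OE, and 7.33%, 5.3% and 7.21% were downregulated in the 3 lines. The summed FPKM of the ER folding genes was 2207 ± 29.8 in the WT, 1706 ± 25.4 for *VvSUC11*-OE, 2194 ± 25.6 for *VvSUC12*-OE and 2379 ± 10.6 for *VvSUC27*-OE (SD, n = 3). The ER chaperone BiP (gene21243) had 130.4 ± 5.09, 79.9 ± 1.31, 123 ± 2.36 and 171 ± 5.89 FPKM in the same order, and *VvSUC27*-OE exceeded *VvSUC11*-OE by a log2FC of 1.04 (limma FDR = 2.84e-14).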
